A study of Homo sapiens with 4 samples.

Results

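CXCL8, 3 related neutrophil-attracting chemokines, CCL20 and 5 further NF-kB target genes were followed in MDA-MB-361 cells carrying shRNAs against dermcidin (DCD). The 10 genes were taken by symbol from the platform annotation, with every probe set assigned to 1 of them and to no other gene. This gave 17 probe sets for 9 genes, out of 19775 genes with such a probe set on the array. BIRC3, an inhibitor of apoptosis that binds TRAF proteins, had no such probe set here and was not analysed. The genes were chosen with earlier results of these arrays in view, above all the low CXCL8 values, so their differences from the control are described without a test.

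MDA-MB-361 is an established HER2-positive breast cancer line. RNA was hybridized to 4 Affymetrix U133 Plus 2.0 arrays. One array came from cells with the pLKO control vector, and 1 came from each of 3 derivatives expressing a different DCD shRNA from the same lentiviral backbone. The derivatives are numbered as clones 1, 2 and 3 in the labels and are called IBC-I, IBC-II and IBC-III here, by number. Values of the shRNA lines are always given in that order. All 4 lines were transduced, no array came from untransduced cells, and no line had a replicate array. A difference of the pLKO culture for any other reason enters all 3 comparisons.

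NF-kB is a family of dimeric transcription factors that IkB proteins hold in the cytoplasm of resting cells. TNF-α, interleukin-1 and Toll-like receptor ligands activate the IKK complex, which marks IkB-alpha for destruction and frees the dimer to enter the nucleus. Among its targets are chemokines, adhesion molecules and survival genes, and also its own inhibitors, which end the response. In breast cancer, CXCL8 is known as a chemokine that tumor cells can secrete themselves.

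The targeted gene could not be checked on these arrays. The paper reports lower DCD mRNA and protein in its shRNA derivatives by RT-PCR, immunocytochemistry and immunoblotting. DCD is read by 1 probe set, with an intensity of 2.0 in pLKO and 7.0, 6.0 and 2.7 in the shRNA lines, all under 16, the value to which low intensities were raised (the floor). The arrays differed in quality. For ACTB, the 3' control probe set over the 5' one gave 5.29 in pLKO and 9.67, 2.58 and 42.6 in the shRNA lines, and degraded RNA raises this ratio. All 8 markers of breast epithelium lay above the floor on every array, at deposited intensities between 112.8 and 9776. The 9 leukocyte markers with a probe set lay between 1.0 and 61.2. The 9 markers of fibroblasts and endothelium reached from 1.5 to 253.9. The highest of them on each array, COL1A1, was at 199.9 or more, within the range of the epithelial markers.

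The proximal promoters of the members are shown because most of these genes share the site at which NF-kB binds. RefSeq windows (GRCh38.p14) from 250 bases before to 50 bases after the start were searched on both strands for GGNNNTTCC and for the 10-letter NF-kB consensus, 2 motifs whose matches overlap each other. GGNNNTTCC was found in all 11 promoters of the 10 genes, against 20.1% of all 35116 promoters. The consensus was found in 9 of the 11 promoters, against 11.3% of all promoters. By genes it was found in 8 of the 10, and those without it were CXCL8 and ICAM1. Members were chosen as known NF-kB targets, so these matches are a description. The 100 bases before the start follow for 6 members, 5' to 3' on the strand of the gene, with matches to GGNNNTTCC on either strand in capitals.
CXCL8 (chr4:73740469-73740568, + strand): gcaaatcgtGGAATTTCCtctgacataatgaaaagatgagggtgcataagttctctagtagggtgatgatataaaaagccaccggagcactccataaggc
CXCL1 (chr4:73869293-73869392, + strand): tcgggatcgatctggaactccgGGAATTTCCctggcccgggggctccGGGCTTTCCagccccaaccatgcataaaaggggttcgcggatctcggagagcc
CXCL2 (chr4:74099196-74099295, - strand): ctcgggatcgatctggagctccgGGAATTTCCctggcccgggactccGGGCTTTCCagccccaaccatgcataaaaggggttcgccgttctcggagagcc
CXCL3 (chr4:74038690-74038789, - strand): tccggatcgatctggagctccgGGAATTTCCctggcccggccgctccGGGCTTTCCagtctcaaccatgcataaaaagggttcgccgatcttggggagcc
NFKBIA (chr14:35404750-35404849, - strand): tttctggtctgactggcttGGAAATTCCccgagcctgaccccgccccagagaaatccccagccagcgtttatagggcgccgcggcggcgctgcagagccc
TNFAIP3 (chr6:137867159-137867258, + strand): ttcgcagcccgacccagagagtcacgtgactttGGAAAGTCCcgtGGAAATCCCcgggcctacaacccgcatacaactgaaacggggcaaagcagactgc
The 4 chemokines carry the same 9 bases, GGAATTTCC, beginning 91 bases before the start in CXCL8, 78 in CXCL1 and CXCL3 and 77 in CXCL2.

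CXCL8 encodes interleukin-8, which attracts neutrophils through the receptors CXCR1 and CXCR2. By its brighter probe set, 202859_x_at, the deposited intensity was 169.1 in pLKO and 24.1, 19.5 and 14.1 in the shRNA lines. The control stood well above all 3 shRNA lines, which lay close to the floor. After quantile normalization the value was 132.6 in pLKO, 23.4 in IBC-I, at the floor of 16 in IBC-II and 20.2 in IBC-III. CXCL8 was thus 5.67-fold, at least 8.29-fold and 6.56-fold lower than pLKO, a mean log2 difference of -2.76 ± 0.28 (SD, n = 3 comparisons that share 1 control array). The error covers only the spread between the 3 shRNA arrays, since the control has no spread of its own. Those arrays differ in hairpin, line and RNA quality together, and the IBC-II value is set by the floor. The other probe set, 211506_s_at, was dimmer, at 29.4 in pLKO and 15.9, 4.1 and 2.1 in the shRNA lines. It had the same order as the first, and with all 3 shRNA arrays at the floor it was at least 1.69-fold lower in each. The suffix of 202859_x_at marks a probe set some of whose probes can bind other transcripts. In the values as deposited, without the floor, the brighter probe set had shRNA values 7.02-fold, 8.67-fold and 12.0-fold under pLKO. With a floor of 64, above all shRNA values, the mean log2 difference was -1.05.

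**Figure D1:**
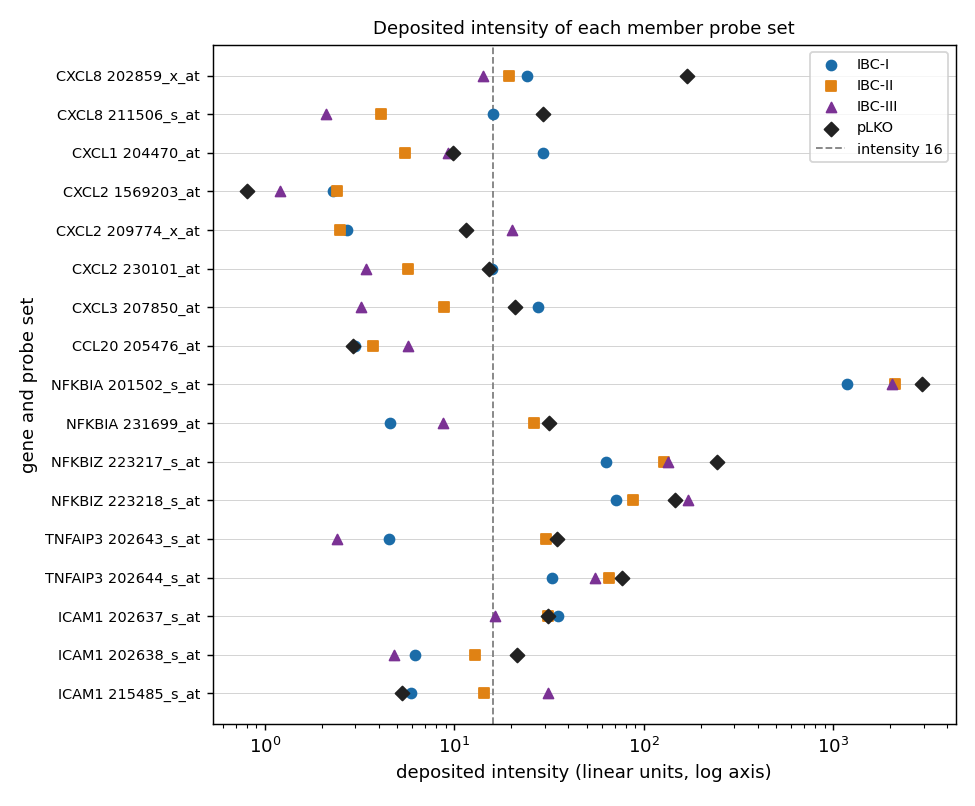
Deposited intensity (linear units on a log axis) of the 17 probe sets of 9 member genes. Each point is 1 array (circle for IBC-I, square for IBC-II, triangle for IBC-III, diamond for pLKO) and the dashed line marks an intensity of 16. The pLKO point of CXCL8 202859_x_at, at 169.1, lies far to the right of the other 3, while the probe sets of CXCL1, CXCL2, CXCL3 and CCL20 lie near or left of the line.

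CXCL1, CXCL2 and CXCL3 encode chemokines that share CXCR2 with CXCL8 and are close copies of each other, so that their probe sets may read more than 1 of them. CXCL1 had intensities of 9.8 in pLKO and 29.2, 5.5 and 9.2 in the shRNA lines. It passed the floor in IBC-I and on no other array. CXCL2 is read by 3 probe sets, of which the one with the highest mean, 209774_x_at, had 11.5 in pLKO and 2.7, 2.5 and 20.2 in the shRNA lines. Its other probe sets were at the floor on all 4 arrays after normalization. CXCL3 had 21.0 in pLKO and 27.7, 8.8 and 3.2 in the shRNA lines, a log2 difference of 0.47 in IBC-I and, at the floor there, of at most -0.30 in IBC-II and IBC-III. CCL20 encodes the ligand of CCR6, which draws dendritic cells and lymphocytes. It lay between 2.9 and 5.7 on the 4 arrays, at the floor on each. Of the 24 intensities of these 4 genes, 20 were under 16 and the highest was 29.2, within the range of the leukocyte markers given above. A difference in these genes was therefore not detectable at this signal, and none of them passed the filter on dim probe sets. Whether they changed along with CXCL8 cannot be read from these arrays.

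In the RefSeq gene order of chromosome 4, CXCL8 and CXCL2 mark the ends of a run of 9 protein-coding genes, all of them chemokines and all with a probe set. CXCL8 was the only one of the 9 that passed the filter. The filter takes the mean of all 4 arrays, and CXCL8 was bright in pLKO alone, so its passing restates that difference. The remaining 8 were CXCL6, PF4V1, CXCL1, PF4, PPBP, CXCL5, CXCL3 and CXCL2. By the brightest probe set of each, they had intensities between 0.9 and 31.1. The CXCL8 values of the shRNA lines, 24.1, 19.5 and 14.1, fall in this range. Of their 24 log2 differences from pLKO, most rest on arrays at the floor, so no order among them is given.

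NFKBIA encodes IkB-alpha, the inhibitor that NF-kB induces to shut itself off. Its main probe set, 201502_s_at, was bright, with a deposited intensity of 2925.4 in pLKO and 1179.1, 2107.1 and 2050.1 in the shRNA lines. As deposited, the control was the highest of the 4 arrays. After normalization the values were 2055 in pLKO and 1449, 1149 and 4031 in the shRNA lines, so that NFKBIA was 1.42-fold (IBC-I) and 1.79-fold (IBC-II) lower than pLKO but 1.96-fold higher in IBC-III. The direction in IBC-III turned with the scaling, from a log2 difference of 0.97 with quantile normalization and 0.11 with median centring to -0.51 in the values as deposited. The dim probe set 231699_at had 31.6 in pLKO and 4.6, 26.3 and 8.7 in the shRNA lines, again with pLKO highest.

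NFKBIZ encodes IkB-zeta, a nuclear IkB protein that acts as a cofactor for some secondary response genes. Its brighter probe set, 223217_s_at, had 242.8 in pLKO and 62.8, 127.4 and 134.6 in the shRNA lines. After normalization IBC-I was 2.73-fold lower than pLKO and IBC-II 2.34-fold lower, and IBC-III was 1.41-fold higher. Here too IBC-III turned, to a log2 difference of -0.23 with median centring and -0.85 as deposited. The second probe set, 223218_s_at, had 146.0 in pLKO and 71.0, 87.4 and 170.6 in the shRNA lines, and was higher than pLKO in IBC-III under each scaling. Both probe sets placed IBC-I and IBC-II below the control, while they disagreed on IBC-III in the values as deposited.

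TNFAIP3 encodes A20, a ubiquitin-editing enzyme that restrains signals from the TNF receptor to IKK. Its brighter probe set, 202644_s_at, had 76.6 in pLKO and 32.6, 65.8 and 55.5 in the shRNA lines. Normalized, IBC-I was 1.94-fold and IBC-II 1.37-fold lower than pLKO. IBC-III was 1.59-fold higher, and there the log2 difference became 0.16 with median centring and -0.46 as deposited. Its other probe set, 202643_s_at, had 35.0 in pLKO and 4.5, 30.4 and 2.4 in the shRNA lines, which put IBC-II 1.36-fold below pLKO and IBC-I and IBC-III at least 1.99-fold below it. The 2 probe sets of TNFAIP3 thus went the same way in IBC-I and IBC-II and opposite ways in IBC-III.

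ICAM1 encodes a surface ligand of leukocyte integrins. Its probe set 202637_s_at had 31.3 in pLKO and 35.2, 31.3 and 16.3 in the shRNA lines. Normalized, IBC-I was 1.24-fold higher than pLKO, while IBC-II was 1.20-fold and IBC-III 1.21-fold lower. The other probe sets were dim and did not share a pattern. The probe set 202638_s_at had 21.3 in pLKO and lay at the floor in all 3 shRNA lines, and 215485_s_at was at the floor except in IBC-III, at 31.1. The 3 probe sets of ICAM1 placed IBC-III below, below and above the control.

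**Figure D2:**
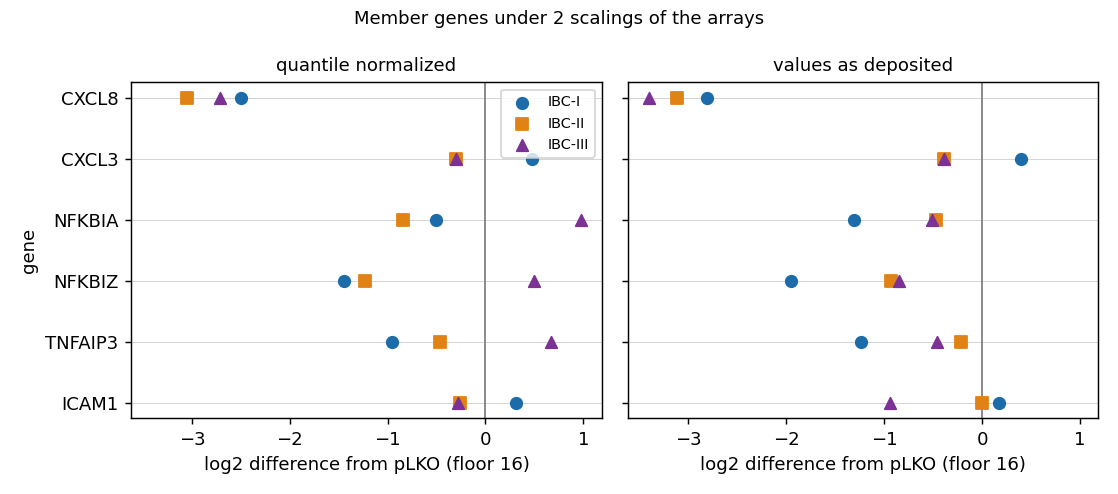
log2 difference from pLKO (floor of 16) of 6 member genes by the probe set with the highest mean, with quantile normalization (left) and in the values as deposited (right). Points are single comparisons (circle for IBC-I, square for IBC-II, triangle for IBC-III) and the vertical line stands at 0. CXCL8 lies below -2.5 in every comparison under both scalings, whereas NFKBIA, NFKBIZ and TNFAIP3 lie on both sides of the line on the left and below it on the right.

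Counted by the brightest probe set, 1 of the 9 members, CXCL8, lay below pLKO in every one of the 3 comparisons, and 0 lay above. Of all 12728 genes tested, 21.3% were lower in all 3 and 18.8% were higher. CXCL8 was also the only member at least 3-fold lower in each comparison, where the share of all genes was 0.181%. Over probe sets, 0.179% were at least 3-fold lower in each and 0.0366% at least 3-fold higher. Of the 9 members, 5 had a probe set that passed the filter, while the shares of all genes cover only genes that passed it. CXCL1, CXCL2 and CCL20 were at the floor in pLKO after quantile normalization of the 4 arrays, and so could not be lower there. Without IBC-III, whose ACTB and GAPDH 3' to 5' ratios exceeded those of all other arrays, 4 members were lower in both remaining comparisons, CXCL8, NFKBIA, NFKBIZ and TNFAIP3, beside 30.8% of all genes. The same 4 were lower in all 3 comparisons in the values as deposited, beside 20.4% of all genes. With median centring CXCL8 and NFKBIZ were lower in all 3, beside 27.5%. Nothing is read from these counts, since the members were chosen on the same comparisons. The part of RNA quality in the IBC-III values was not tested.

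By the size of the difference, 24 of the 12728 genes lay further below pLKO than CXCL8 in IBC-I and 10 did in IBC-II, where CXCL8 is at the floor and its place is set by the floor. In IBC-III 247 did, on the array where 10.9% of all genes were at least 3-fold lower than pLKO, against 2.15% in IBC-I and 0.927% in IBC-II. Ranked by the smallest of its 3 fold differences, 5.67, CXCL8 was gene number 3 of 12728. These places are a description, since CXCL8 was chosen on the same comparisons and was bright in pLKO alone. NFKBIA sat within the bulk of the genes, with 23.4%, 6.42% and 84.4% of them further below pLKO in the shRNA lines. NFKBIZ lay nearer the low end in IBC-I, with 3.02% of genes below it, and in IBC-II, with 2.32%. For TNFAIP3 the shares were 9.72% in IBC-I and 18.4% in IBC-II.

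**Figure D3:**
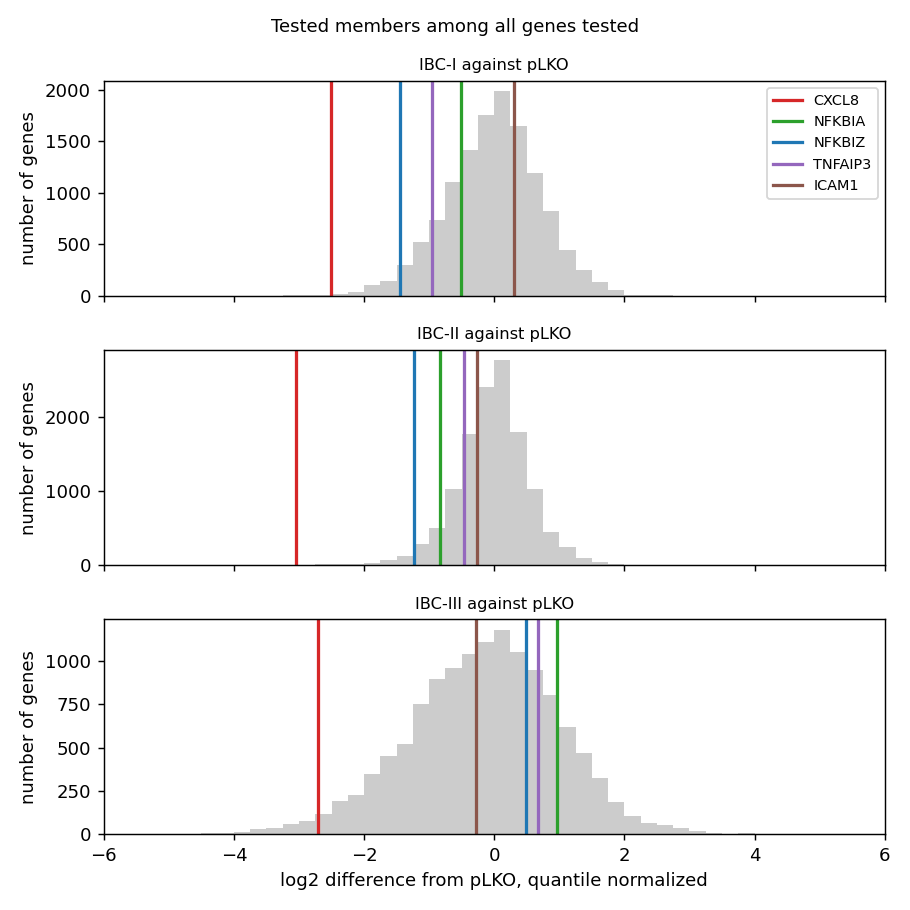
Distribution over 12728 genes of the log2 difference from pLKO after quantile normalization, with 1 panel for each shRNA line (bars, number of genes in bins of 0.25). Vertical lines mark the 5 members that passed the filter. CXCL8 lies in the low tail of every panel, and NFKBIA, NFKBIZ and TNFAIP3 move from the left of the centre in IBC-I and IBC-II to its right in IBC-III.

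The genes whose log2 values over the 4 arrays were most like those of CXCL8, by Euclidean distance after centring each gene on its mean, were PNMT at 0.42, TMEM229B at 0.44, CYP2A6 at 0.51, UPP1 at 0.66 and SERPINA5 at 0.73. The median distance of all genes was 2.55. PNMT, the enzyme that makes adrenaline from noradrenaline, had deposited intensities of 121.8 in pLKO and 24.7, 5.8 and 1.9 in the shRNA lines. UPP1, a uridine phosphorylase, had 86.7 in pLKO and 3.0, 11.0 and 6.5 in the shRNA lines. All 5 were well above the shRNA lines in pLKO, which follows from their choice by likeness to CXCL8. UPP1 was at the floor in all 3 shRNA lines, PNMT and TMEM229B in IBC-II and IBC-III, and SERPINA5 in IBC-III. CXCL8 itself was at or near the floor in the shRNA lines, so the short distances rest in part on the floor. None of the fixed pathway lists held any of the 5.

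After quantile normalization the NF-kB subunits went different ways. RELA, the p65 subunit that carries the activation domain, had 407.1 in pLKO and 197.0, 339.7 and 80.4 in the shRNA lines, and was 1.34-fold, 1.58-fold and 2.05-fold lower after normalization. Both RELA probe sets lay below pLKO in all 3 comparisons. RELB, of the alternative pathway, had 41.0 in pLKO and 32.5, 26.6 and 6.3 in the shRNA lines, with IBC-III at the floor. These 2 of the 5 subunits were lower than pLKO in all 3 comparisons, under each of the 3 scalings, beside 21.3% of all genes after quantile normalization. NFKB1, the precursor of p50, had a log2 difference of 0.04, 0.67 and -0.73 in the shRNA lines, and the first of these turned to -0.43 with median centring. REL and NFKB2 were lower in IBC-II, at -0.51 and -0.34, with signs in IBC-I and IBC-III that changed with the scaling. As deposited, REL and NFKB2 were lower in all 3 comparisons too. That made 4 of the 5 subunits lower, beside 20.4% of all genes. Of the other IkB proteins, NFKBID, at the floor in IBC-I and IBC-III, was lower in all 3 comparisons, with -0.17 in IBC-II that became 0.10 as deposited. NFKBIE had -0.85, 0.04 and -0.83 in IBC-I, IBC-II and IBC-III. NFKBIB had -1.49, -0.20 and 0.28, the last 2 with signs that changed with the scaling, and NFKBIL1 was above the floor in IBC-III and on no other array.

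Of 23 tested genes of the IKK complex, its adaptors and upstream enzymes, 8 lay below pLKO in all 3 comparisons, 4 lay above it in all 3 and 11 did neither, beside 21.3% below and 18.8% above among all genes. RBCK1 (HOIL-1), a subunit of the linear ubiquitin ligase that feeds IKK, had 2405.7 in pLKO and 230.4, 412.8 and 366.0 in the shRNA lines, and was 6.30-fold, 7.21-fold and 2.28-fold lower after normalization. Its other probe sets were lower in IBC-I and IBC-II too but had log2 differences of 0.34 and 0.45 in IBC-III, where both were below pLKO as deposited, at 153.6 against 314.7 and 32.9 against 44.0. The IKK-related kinase IKBKE had 63.4 in pLKO and 12.1, 48.2 and 7.6 in the shRNA lines, with IBC-I and IBC-III at the floor. CYLD, a deubiquitinase that limits NF-kB, had 74.0 in pLKO and between 24.4 and 50 in the shRNA lines, with log2 differences of -0.69, -0.75 and -0.73. TRAF5, an adaptor of TNF family receptors, went the other way, with 72.9 in pLKO and 93.4, 188.0 and 55.4 in the shRNA lines, the last higher than pLKO after normalization and lower as deposited. The median log2 difference of the list was -0.21, 0.10 and -0.16 in the shRNA lines, beside 0.01, 0.00 and -0.11 over all genes tested.

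Of 15 tested receptors and ligands upstream of NF-kB, 3 lay below pLKO in all 3 comparisons, 5 lay above it in all 3 and 7 did neither. The shares of all genes were 21.3% and 18.8%, and the count below is near the first. TLR5, the receptor of flagellin, had 129.6 in pLKO and 52.1, 61.9 and 35.3 in the shRNA lines. TLR4, the receptor of lipopolysaccharide, had 39.5, 27.0, 17.8 and 3.8 in the same order, with IBC-II and IBC-III at the floor after normalization. On the higher side were IL1RN, the interleukin-1 receptor antagonist, with 23.7 in pLKO and 57.2, 39.5 and 46.7 in the shRNA lines, and the cytokine IL1A, at the floor in pLKO, with 10.6 there and between 18.6 and 32 in the shRNA lines. The receptors of the member chemokines, CXCR1, CXCR2 and CCR6, did not pass the filter. Of the integrin chains that bind ICAM1, ITGAM had 7.5 in pLKO and 33.4, 24.6 and 22.7 in the shRNA lines. With pLKO at the floor, ITGAM was higher in all 3 comparisons. ITGAL had 33.8 in pLKO and 51.7, 10.5 and 4.6 in the shRNA lines, with IBC-II and IBC-III at the floor. ITGB2 had 37.7 in pLKO and 35.3, 29.3 and 3.7, with log2 differences of 0.07, -0.59 and -1.08, the first below 0 under the other scalings. All 3 chains lay within the range of the leukocyte markers.

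Of 20 tested genes among the other NF-kB targets, 3 lay below pLKO in all 3 comparisons, 2 lay above it in all 3 and 15 did neither. After quantile normalization both counts were smaller shares than the 21.3% and 18.8% of all genes. The count below pLKO depended on the scaling. It was 8 of 20 with median centring, beside 27.5% of all genes, and 9 of 20 as deposited, beside 20.4%. CX3CL1, a membrane-anchored chemokine, had 132.9 in pLKO and 42.4, 43.5 and 18.5 in the shRNA lines, and was 2.39-fold, 3.27-fold and 3.90-fold lower after normalization. Its 2 probe sets were both below pLKO in all 3 comparisons. IER3, an immediate early survival gene, had 1683.1 in pLKO and 572.5, 731.4 and 279.1 in the shRNA lines. The third was RELB, given above. SOD2, the mitochondrial superoxide dismutase, was higher with 51.8 in pLKO and 63.8, 82.3 and 63.0 in the shRNA lines. CFLAR, an inhibitor of caspase-8, was higher by its brightest probe set, though below pLKO in IBC-III in the values as deposited. Among the 12 CFLAR probe sets tested, 2 lay above pLKO in all 3 comparisons and 1 below. The median log2 difference of the list was 0.08, -0.25 and -0.01 in the shRNA lines, where all genes had 0.01, 0.00 and -0.11. The median of the means over the 3 comparisons was -0.09, beside -0.06 over all genes tested.

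Of 10 tested chemokines outside the members, 2 lay below pLKO in all 3 comparisons (CX3CL1 and CCL17), 1 lay above it and 7 did neither, beside 21.3% and 18.8% of all genes. CCL17 had 48.3 in pLKO and 4.4, 45.2 and 3.8 in the shRNA lines. It was at the floor in IBC-I and IBC-III, and its log2 difference in IBC-II was -0.34. CXCL16 was higher after normalization, with deposited values of 98.4 in pLKO and 128.4, 155.2 and 89.4 in the shRNA lines, the last below pLKO before normalization.

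The CXCL8 promoter is also known to bind AP-1 and C/EBP factors. Of 8 such factors tested, 4 lay below pLKO in all 3 comparisons, 0 lay above it in all 3 and 4 did neither, beside 21.3% and 18.8% of all genes. CEBPB had 1662.8 in pLKO and 252.5, 548.4 and 341.9 in the shRNA lines, and was 3.99-fold, 3.82-fold and 1.70-fold lower after normalization. JUNB had 462.6, 112.4, 335.6 and 26.5 in the same order, and was 2.72-fold, 1.81-fold and 8.58-fold lower. FOS, at 41.3 in pLKO, was at the floor in IBC-II and IBC-III and 26.6 in IBC-I. FOSL2 had log2 differences of -0.09, -0.43 and -0.77. Their median log2 difference was -0.05, -0.64 and -0.76 in the shRNA lines, beside 0.01, 0.00 and -0.11 over all genes tested. CXCL8 mRNA carries AU-rich elements that speed its decay. Of 6 tested regulators of such decay, 1 lay below pLKO in all 3 comparisons and 1 above, beside the same shares of all genes. ZFP36 (tristetraprolin), itself a gene of the immediate early response, had 258.6 in pLKO and 131.7, 190.4 and 40.1 in the shRNA lines. The gene above pLKO was HNRNPD, with signs in IBC-I and IBC-III that changed with the scaling.

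**Figure D4:**
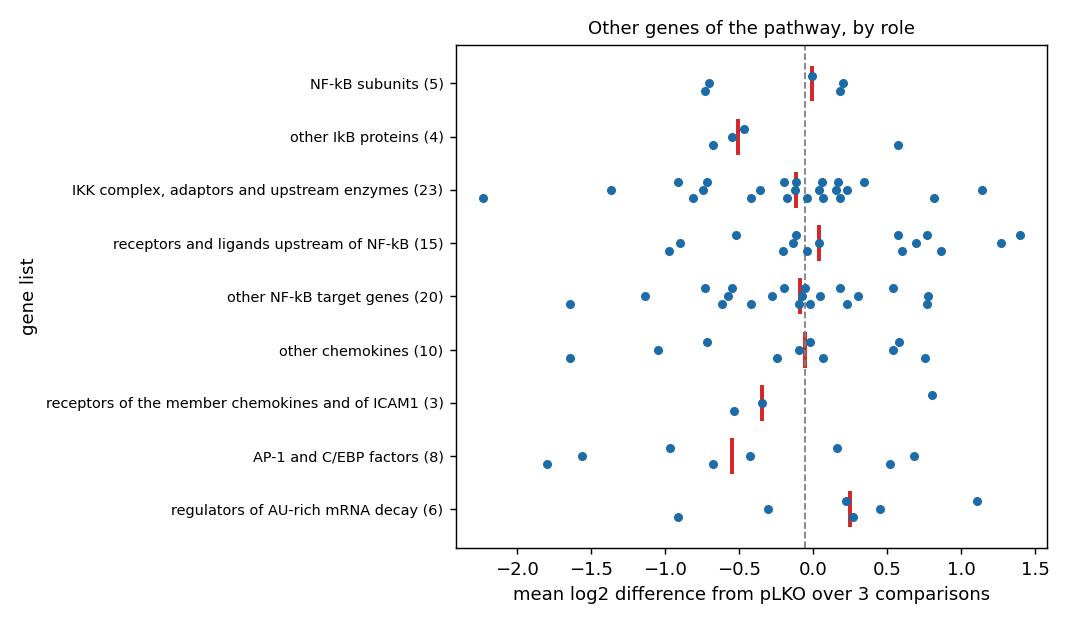
Mean log2 difference from pLKO over the 3 comparisons for the tested genes of each list of pathway genes that are not members, each list name followed by how many genes it holds. A point stands for 1 gene by its brightest probe set, the red bar is the median of the list and the dashed line is the median of all genes tested, -0.06. The other NF-kB target genes lie on both sides of the line around a median of -0.09, and RBCK1, at -2.23, is the lowest point.

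limma, fitted to all 27307 tested probe sets with the 3 shRNA arrays against the lone pLKO array, called 0 probe sets (0%) at an adjusted p under 0.05. At an unadjusted p under 0.05 it called 125 lower and 81 higher (by genes, 0.495% and 0.22%), and the methods' paired test called 1076 and 1246, with 0 after Benjamini-Hochberg adjustment. None of the pathway genes outside the members passed after adjustment. Unadjusted, RBCK1 and CX3CL1 were the only ones under 0.05. The fit draws its spread from 3 lines that carry different hairpins, and assumes that pLKO varies like them.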

How the data were processed

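The data were 4 arrays of MDA-MB-361 cells, 3 with DCD shRNAs and 1 with pLKO, grouped by their titles. The authors deposited a linear intensity for each probe set on each array. dChip is the software stated in the methods, and how the deposited intensities were scaled was not given in the sources used here. Medians differed between arrays, from 13.4 in IBC-III to 24.7 in IBC-II, so intensities were quantile normalized (0 set to 0.1 before log2), floored at 16 and expressed as log2. Array signal over background limits precision: between 39.3% and 55.1% of probe sets lay under 16 before normalization. The 62 control probe sets were left out, and 27307 others, with means no lower than the median, were tested. The platform annotation named genes, and in it 41097 probe sets had 1 gene, 1801 several and 11777 none, and 41043 of the first were matched by gene identifier to a GRCh38.p14 table used for names and gene order. Where a gene had several probe sets, the brightest on average stood for it.

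Each shRNA array was compared with pLKO, by the paper's rule of 3-fold for counts. limma 3.58.1 (R 4.3.3) was fitted over all tested probe sets, with 2 residual degrees of freedom. The scripts were tested on simulated data. The members and the 16 lists were chosen with earlier results of these data known. The rule named all members, all NF-kB subunits and IkB proteins, up to 4 genes of each other list that differed most in the same direction in all 3 comparisons (the 2 brightest in pLKO where fewer than 2 did), and the 5 genes most like CXCL8. Promoter sequences are from RefSeq. Alternatives were other scalings, floors, filters, fold rules and limma settings, averaging the probe sets of each gene, and each shRNA array left out with renewed normalization. Figures were drawn with matplotlib 3.10.9.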

Additional observations from a re-analysis of the deposited data

Results flagged for a closer look

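The control probe sets, which enter no comparison, gave 3' to 5' ratios above those of pLKO on 2 of the 3 shRNA arrays. For ACTB the ratio was 9.67 in IBC-I and 42.6 in IBC-III, against 5.29 in pLKO. For GAPDH it was 2.18 in IBC-I and 13.1 in IBC-III, against 1.09 in pLKO. In IBC-II both ratios, 2.58 and 1.02, were below those of pLKO. The part of RNA quality in the differences of any shRNA line from pLKO was not tested.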

How the results depend on the processing

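CXCL8 was lower in each setting run, with a mean log2 difference of -3.11 as deposited, -1.05 with a floor of 64, -1.76 with the mean of its probe sets, and between -2.96 and -2.48 with an shRNA array left out. The number of members lower in all comparisons was 1, and it was 2 with median centring or the mean of all probe sets, 4 as deposited and 1 to 4 with an array left out, while 0 were higher throughout (0 to 0). NFKBIZ stayed below 0 in each setting and CXCL1 was never below 0, while 5 other members turned in some. The mean log2 difference of CXCL2 turned from 0.30 to -1.04 with a floor of 1, and that of TNFAIP3 from -0.25 to 0.22 with a floor of 64. Without an shRNA array, CXCL3 ranged from -0.28 to 0.14, with 0.14 without IBC-II and 0.01 without IBC-III, NFKBIA from -0.66 to 0.26, with 0.06 without IBC-I and 0.26 without IBC-II, TNFAIP3 from -0.75 to 0.10, with 0.10 without IBC-I, and ICAM1 from -0.28 to 0.029, with 0.013 without IBC-II and 0.029 without IBC-III. ICAM1 was 0.050 with the mean of its probe sets. The cause was not tested.

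Of the other NF-kB targets, 3 were lower and 2 higher. This became 8 lower with median centring, 9 lower and 1 higher as deposited, 1 higher with a floor of 64 and 1 lower with the upper quartile filter. With an array left out, 4 to 7 were lower, 7 of them without IBC-III, and 2 to 6 higher. Of all genes, 27.5% were lower with median centring, 20.4% as deposited and 30.8% without IBC-III. The median of these targets, -0.09, became -0.29 with median centring, -0.44 as deposited, 0.045 with the upper quartile filter and 0.014 with the mean of all probe sets. It ranged from -0.20 to 0.027 with an array left out, positive without IBC-II. The median of all genes tested moved as well, from -0.06 to -0.30 with median centring and -0.42 as deposited. By the 3-fold rule 49 probe sets were lower and 10 higher. The number lower was 90 with median centring, 96 as deposited, 22 with a floor of 64, 19 with the upper quartile filter and 210 by a 2-fold rule, and the number higher was 246 with a floor of 1, 3 with a floor of 64 and 173 by a 2-fold rule. With an array left out, and so with 2 comparisons to satisfy, 95 to 274 were lower and 34 to 142 higher. limma called 389 lower and 4 higher with a floor of 64 and 1308 and 18 without a filter, settings in which many probe sets have no spread because they lie at the floor, and 0 to 0 with an array left out. No paired analysis was possible because the pLKO sample carries no replicate number that would match it to a single shRNA array. The methods' paired test sets the 3 log2 differences, all against the same pLKO array, against 0.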

Other observations

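The receptor of interleukin-1, IL1R1, lies upstream of NF-kB and was picked out here after its values were seen. Its deposited intensity was 67.3 in pLKO and 223.7, 639.7 and 23.2 in the shRNA lines. After normalization the log2 difference was 2.21, 2.67 and -0.70 in the shRNA lines, so that the receptor was higher in 2 of the lines in which CXCL8 was lower.

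GGNNNTTCC was also found in the promoter windows of 16 of the 25 other NF-kB target genes that have a window, beside 20.1% of all promoters. The count is of genes with a match in any of their windows, while the share is of single promoters. These genes were listed as NF-kB targets, so the matches are a description here too.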
